A study of Mus musculus with 4 samples.

Results

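The Hox genes of the mouse are 39 protein-coding genes in 4 clusters, of which 29 were present in the deposited table of TPM (a level scaled by gene length and library size) from gestational day 4 uterus. They were picked by symbol, as protein-coding genes named Hox, a cluster letter and a position number, with no use of their values. The Hoxa cluster lies on chromosome 6 and has 11 genes, of which 8 were in the table. Hoxb, on chromosome 11, has 10 genes with 8 in the table. Hoxc, on chromosome 15, has 9 genes with 7 in the table, and Hoxd, on chromosome 2, has 9 genes with 6 in the table. The table kept genes with a total of at least 51 counts over the 4 libraries. The kept Hox gene nearest to that limit was Hoxc9 with 104 counts, and the nearest below it was Hoxa4 with 32.

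Hox genes encode transcription factors that bind DNA through a homeodomain and give cells along the body axis their regional identity. Within a cluster the genes are expressed in the order in which they lie, so that genes of higher position number act further towards the tail, and genes of the same position number in different clusters, called paralogues, are close relatives. The female reproductive tract keeps this pattern into adult life: Hoxa9 marks the oviduct, Hoxa10 and Hoxa11 the uterus, and Hoxa13 the cervix and upper vagina. In mice, loss of Hoxa10 or Hoxa11 impairs implantation and the response of the stroma to progesterone.

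RNA was sequenced from whole uterus of knockout and control mice, with 2 libraries in each group. Knockout mice were Prss29Cre/Cre;Pgrf/f, named Pgr gecKO: both copies of Prss29, a protease gene transcribed in uterine glands, carried Cre recombinase, and both copies of Pgr, the progesterone receptor gene, were floxed, a design meant to delete Pgr in gland epithelium. Control mice were wild type, labelled Control WT. The sources used here do not give strain or age, or say whether a library came from 1 animal. The presence of Cre, the disrupted Prss29 locus, the floxed Pgr alleles and any strain difference cannot be told apart in this design.

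Libraries held 31901278 and 29932153 counts in knockouts 1 and 2, and 35149834 and 33843256 counts in controls 1 and 2. Pgr stood at 130.1 and 146.2 CPM (each count divided by its library total after TMM normalisation) in the knockouts and at 140.5 and 138.6 CPM in the controls, a whole-tissue level that does not check a deletion confined to glands. Prss29 had 0 and 0 counts in the knockouts, against 1524 and 190 in the controls. Over all 20950 genes tested by edgeR's quasi-likelihood test, 1 had an adjusted p under 0.05, a share of 0.00477%. In whole tissue, fewer cells of a type and less RNA per cell cannot be told apart.

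The uterus had reads for Hox genes up to position 11 and next to none beyond it. Genes of position 13 had 0 counts in every library in all 4 clusters. A count of 0 allows up to 3 counts, equal to 0.0940 and 0.10 CPM without TMM in the knockouts and 0.0853 and 0.0886 CPM in the controls. Hoxc12 and Hoxd1 were also at 0 in every library, Hoxb1 had 1 count in all, and Hoxd12 had 3 and 1 counts in the knockouts and 4 and 0 in the controls. Hoxa4 had 17 and 1 in the knockouts and 8 and 6 in the controls. Hoxa13 was at 0 although Hoxa11, the Hox gene beside it, was among the most abundant members. Markers of the stratified epithelium of cervix and vagina were low but not absent. Of 10 listed, 9 were in the count table, and their summed level was 17.4 and 10.7 TPM in the knockouts and 10.8 and 10.95 TPM in the controls. None of the 9 was at 0 in every library, and 4 reached the limit of the TPM table. Sprr1a had 123 and 49 counts in the knockouts and 41 and 15 in the controls. Dsg3 had 32 and 147 counts in the knockouts and 292 and 128 in the controls. Krt14 had 4 and 10 counts in the knockouts and 12 and 110 in the controls. Krt5, a basal keratin, had 0 and 2 counts in the knockouts and 0 and 11 in the controls.

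**Figure D1:**
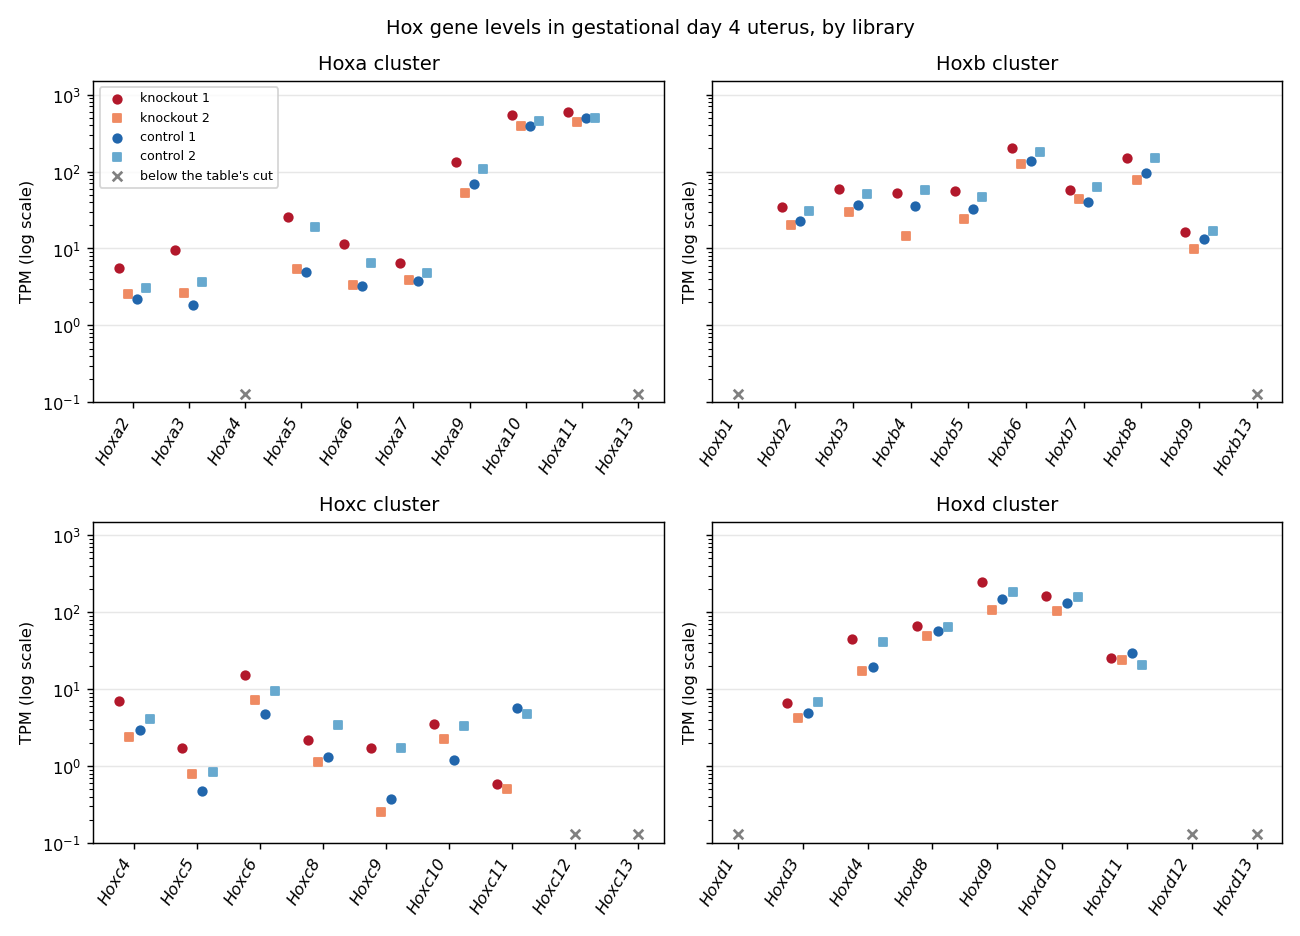
Level of each Hox gene in TPM (log scale) in the 4 clusters, with knockout libraries in red tones and control libraries in blue tones, 1 point per library and no averaging. Grey crosses at the foot mark genes below the table's count limit. Levels climb to Hoxa10 and Hoxa11 in the Hoxa cluster, and Hoxc11 is the gene whose red and blue points stand far apart.

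Hoxa11 and Hoxa10 were the most abundant members, with mean levels of 506 and 445 TPM over the 4 libraries. Hoxa11 had 596 and 434 TPM in the knockouts and 490.1 and 503 TPM in the controls. Hoxa10 had 545 and 392 TPM in the knockouts and 389 and 452 TPM in the controls. For both genes the knockout libraries bracketed the range of the controls or overlapped it, and Hoxa11 exceeded Hoxa10 in all 4 libraries. Together they made up 44.9% and 52.9% of the summed Hox TPM in the knockouts and 49.3% and 43.4% in the controls. Among the 19991 genes of the table, Hoxa11 ranked 222 and Hoxa10 ranked 251 by mean TPM.

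Genes of position 9 to 11 together took 68.0% and 72.1% of the summed Hox TPM in the knockouts and 71.6% and 66.0% in the controls. Those of positions 4 to 8 took 27.5% and 24.1% in the knockouts and 24.5% and 29.6% in the controls, and those of positions 1 to 3 took 4.55% and 3.81% in the knockouts and 3.84% and 4.34% in the controls. Hoxa genes held the largest share and Hoxc genes the smallest in each library. The Hoxa share was 52.5% and 57.4% in the knockouts and 54.0% and 49.98% in the controls, and the Hoxb share was 24.7% and 22.2% in the knockouts and 23.1% and 27.2% in the controls. The Hoxd share was 21.55% and 19.5% in the knockouts and 21.97% and 21.54% in the controls, and the Hoxc share was 1.26% and 0.936% in the knockouts and 0.933% and 1.26% in the controls. The group ranges overlapped in all 4 clusters, for Hoxd only at knockout 1 and control 2. With 2 libraries in each group, an exact two-sided permutation test cannot give a p below 0.333, so these shares carry no test.

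**Figure D2:**
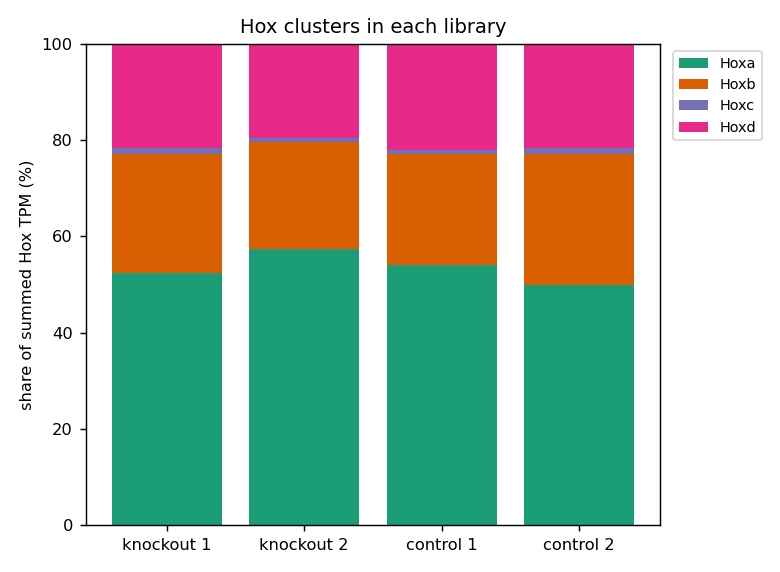
Share of the summed Hox TPM (%) taken by each cluster, as stacked bars from 0 to 100, 1 bar per library. Hoxa takes 49.98% to 57.4% and Hoxc about 1% in each of the 4 libraries.

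The other genes of positions 9 and 10 differed widely between clusters. In position 9, Hoxd9 had 244 and 107 TPM in the knockouts and 149.9 and 185 TPM in the controls, and Hoxa9 had 133 and 52.1 TPM in the knockouts and 68.5 and 108 TPM in the controls. Hoxb9 had 16.3 and 9.87 TPM in the knockouts and 13.4 and 16.9 TPM in the controls, while Hoxc9 had 1.73 and 0.252 TPM in the knockouts and 0.379 and 1.73 TPM in the controls. For each of these genes the control values lay within the range of the knockouts, or, for Hoxb9 and Hoxc9, partly above it. In position 10, Hoxd10 had 161 and 103 TPM in the knockouts and 130.3 and 158 TPM in the controls, against 3.56 and 2.25 TPM in the knockouts and 1.21 and 3.30 TPM in the controls for Hoxc10. Both sets of libraries overlapped. Hoxd11 had 25.7 and 23.7 TPM in the knockouts and 29.7 and 20.6 TPM in the controls, with both knockouts inside the range of the controls.

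Outside the tail-side genes, Hoxb6 and Hoxb8 led the Hoxb cluster and Hoxc6 and Hoxc4 the Hoxc cluster. Hoxb6 had 203 and 126 TPM in the knockouts and 136 and 181 TPM in the controls. Hoxb8 had 149 and 78.0 TPM in the knockouts and 94.4 and 150.0 TPM in the controls. In the Hoxc cluster, Hoxc6 had 15.1 and 7.33 TPM in the knockouts and 4.71 and 9.60 TPM in the controls, and Hoxc4 had 7.12 and 2.38 TPM in the knockouts and 2.98 and 4.09 TPM in the controls. In each of the 4 genes the groups overlapped. The remaining Hoxb genes of positions 2 to 7 averaged 27.0 (Hoxb2) to 51.4 TPM (Hoxb7) over the 4 libraries, and Hoxd8 and Hoxd4 averaged 58.9 and 30.5 TPM. Hoxa2, Hoxa3, Hoxa6, Hoxa7 and Hoxd3 averaged 3.36 to 6.14 TPM, and Hoxa5 averaged 13.7 TPM. Hoxc8 averaged 2.01 TPM and Hoxc5 0.953 TPM.

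Hoxc11, the tail-most expressed gene of the Hoxc cluster, was the member with the largest difference between the groups. It had 12 and 10 counts in the knockouts, against 123 and 105 in the controls, or 0.593 and 0.505 TPM in the knockouts and 5.61 and 4.75 TPM in the controls. The groups did not overlap, and the libraries within each group lay close to each other. Its level was 0.360 ± 0.00446 CPM in the knockouts and 3.27 ± 0.388 CPM in the controls (SD, n = 2 each). At 12 and 10 counts, counting error exceeds this knockout SD, which is therefore no measure of reproducibility. The log2 fold change was −3.17 (SE 0.50, 95% interval −4.36 to −1.98). In edgeR's quasi-likelihood test, adjustment over all genes gave it a p of 0.310, so it did not pass. By its unadjusted p of 0.000444 it ranked 30 of 20950 tested genes. The controls exceeded the knockouts 9.07-fold in normalised counts, with a 95% counting interval of 5.85 to 14.8, and 8.31- to 9.84-fold with 1 library left out in turn. DESeq2 gave an adjusted p of 0.000403, and edgeR without a low-count filter 0.0207. Among the alternatives that kept all 4 libraries, which include these, the adjusted p ranged between 0.000403 in DESeq2 and 0.408 in limma-voom. Over all 13 alternatives the log2 fold change ran between −3.29 and −1.99. The −1.99 came from limma on log2(TPM + 1), against −3.03 or lower in the others. Hoxc11 was singled out for this account with its values known, so its rank is a description.

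The transcripts of Hoxc11 and of its paralogues were compared base by base. The homeobox, the stretch of coding DNA for the homeodomain, is where Hox genes resemble each other most, and it is shown for the expressed paralogues of position 11 because Hoxa11 RNA was far more abundant than Hoxc11 RNA. Capitals mark the 45 of 180 bases that the 3 genes do not all share, taken from GENCODE M21 transcripts.
Hoxc11: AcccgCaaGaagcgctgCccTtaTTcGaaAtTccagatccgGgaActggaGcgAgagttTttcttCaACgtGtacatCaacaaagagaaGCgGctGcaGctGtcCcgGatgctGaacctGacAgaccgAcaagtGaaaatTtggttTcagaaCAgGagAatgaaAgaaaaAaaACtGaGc
Hoxa11: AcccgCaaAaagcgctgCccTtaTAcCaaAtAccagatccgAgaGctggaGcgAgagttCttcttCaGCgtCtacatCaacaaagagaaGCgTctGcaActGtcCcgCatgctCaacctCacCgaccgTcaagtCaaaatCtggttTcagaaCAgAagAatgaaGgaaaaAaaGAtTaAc
Hoxd11: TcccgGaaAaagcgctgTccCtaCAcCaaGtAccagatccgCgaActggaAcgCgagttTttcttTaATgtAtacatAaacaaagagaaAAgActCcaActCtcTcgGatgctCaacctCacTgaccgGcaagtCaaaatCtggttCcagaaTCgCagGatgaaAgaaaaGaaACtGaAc

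Over this homeobox Hoxc11 was identical to Hoxa11 at 86.7% of bases and to Hoxd11 at 79.4%. The longest exact run that the 2021-base Hoxc11 transcript shared with any other Hox transcript was 20 bases, with Hoxa11, against reads of 150 bases. Among 141767 annotated transcripts, 0 other genes shared a run of 50 bases with it. No exon of another counted gene overlapped Hoxc11 in that annotation, whereas 16 of the 39 Hox genes, among them Hoxa11, Hoxb5, Hoxc10 and Hoxd4, have such an overlap, and their counts are uncertain where reads fall in it.

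The noncoding gene next to Hoxc11 showed the same contrast at lower counts. Hotair, a long noncoding RNA gene between Hoxc12 and Hoxc11 on the opposite strand, had 1 and 0 counts in the knockouts, against 18 and 27 in the controls. The control libraries lay above both knockouts, 1 of which had no read. The controls exceeded the knockouts 39.4-fold in normalised counts, with a 95% counting interval of 6.72 to 1590.1, and at least 6.03-fold without knockout replicate 1, where the remaining knockout was set to a floor of 3 counts per library. The unadjusted p was 0.00222 and the adjusted p 0.728 in edgeR, and over 11 alternatives the adjusted p ranged between 0.157 and 0.9999, so the gene did not pass. On the other side of Hoxc11, Hoxc10 had 68 and 42 counts in the knockouts and 25 and 69 in the controls, and the groups overlapped. In TPM, Hoxc11 stood at 0.167 and 0.225 times Hoxc10 in the knockouts and at 4.65 and 1.44 times Hoxc10 in the controls. The Hoxc genes other than Hoxc11 summed to 31.4 and 14.1 TPM in the knockouts and 11.05 and 23.0 TPM in the controls. The engineered genes Prss29 and Pgr lie on chromosomes 17 and 9, and the Hoxc cluster on chromosome 15. The cause of the Hoxc11 and Hotair differences was not tested.

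**Figure D3:**
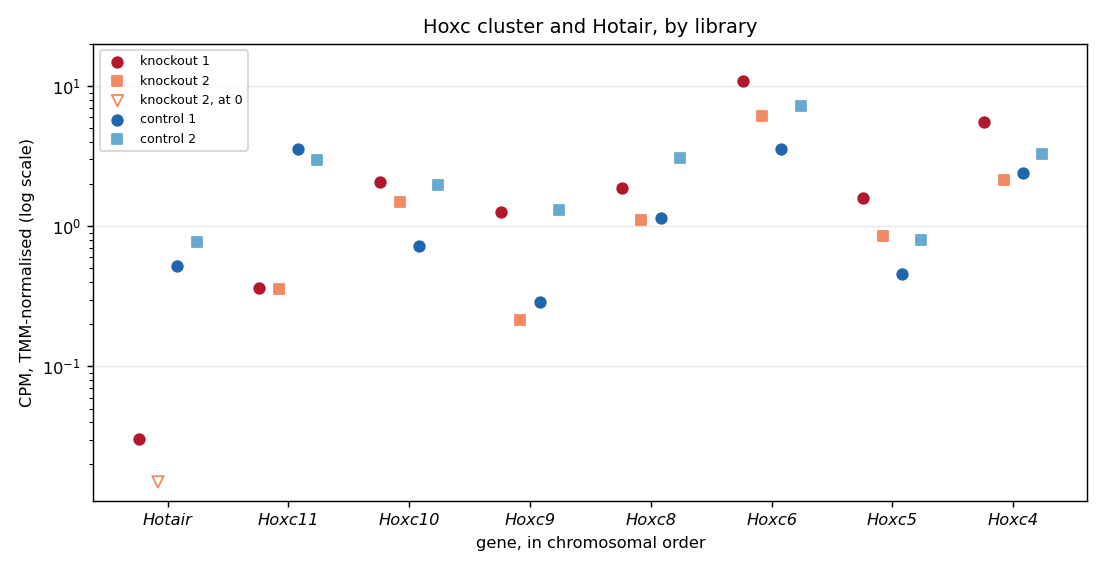
Level in CPM with TMM normalisation (log scale) of Hotair and the 7 Hoxc genes of the table, in chromosomal order, 1 point per library; the open triangle marks a library with 0 counts. Hotair and Hoxc11 are lower in both knockouts than in both controls, and the knockout and control points of Hoxc10, Hoxc9, Hoxc8, Hoxc6 and Hoxc4 overlap.

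Some markers of other cells were lower in both knockouts than in both controls, as Hoxc11 was. At edgeR's adjusted threshold 0 of 8 gland epithelium and 0 of 8 leukocyte markers passed, where 0.00477% of all tested genes did. The unadjusted p was under 0.05 in 6 of 8 gland and 3 of 8 leukocyte markers, against 3.01% of all tested genes. Among those gland markers, Aldh1a1 was higher in the knockouts. In CPM, 6 of the 8 gland markers were lower in both knockouts, against 13.1% of all tested genes, and 1 of these was Prss29, the engineered locus. Aldh1a1 was higher in both knockouts, at 15.7 and 20.3 CPM in the knockouts and 9.76 and 12.1 CPM in the controls, and the groups of Cxcl15 overlapped, at 35.7 and 72.6 CPM in the knockouts and 29.5 and 38.6 CPM in the controls. The summed level of the 8 gland markers was 139 and 155 TPM in the knockouts and 412 and 390.1 TPM in the controls. In that sum, Prss29 had 0 and 0 TPM in the knockouts and 117 and 14.5 TPM in the controls. Spink1 had 48.4 and 32.6 TPM in the knockouts and 117 and 254 TPM in the controls. The 2 controls were thus close in the sum but not in these genes. Foxa2, a transcription factor of gland cells and 1 of the 6 by CPM, overlapped in TPM, at 18.7 and 6.59 TPM in the knockouts and 18.2 and 21.1 TPM in the controls. Of 8 leukocyte markers, 4 were lower in both knockouts in CPM, against the same 13.1%, and the list had a summed level of 462 and 514 TPM in the knockouts and 596 and 990 TPM in the controls, and 0 of them were at 0. Their part in the Hoxc11 difference was not tested.

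None of the 29 tested Hox genes passed in edgeR at an adjusted p under 0.05, against 0.00477% of all tested genes, and 1, Hoxc11, had an unadjusted p under 0.05, against 3.01% of all. DESeq2 called 1 Hox gene, Hoxc11, against 0.392% of the genes to which it gave an adjusted p. Limma-voom called 0, and limma on log2(TPM + 1) called 0. In CPM, both knockouts lay below both controls in 1 of 29 genes, Hoxc11, against 13.1% of all tested genes, and above both controls in 1 of 29, Hoxc5, against 12.2%. Hoxc5 was at 1.60 and 0.855 CPM in the knockouts and 0.461 and 0.798 CPM in the controls. In TPM its groups overlapped, at 1.71 and 0.793 TPM in the knockouts and 0.477 and 0.828 TPM in the controls. The median log2 fold change of the 29 genes was 0.060, beside 0.0063 over all tested genes, and 20 lay above 0 and 9 below.

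The median of the Hox genes rested on single libraries. It was −0.33 without knockout replicate 1 and 0.47 without knockout replicate 2, and −0.13 and 0.34 without control replicates 1 and 2. The number of tested Hox genes above 0 moved too. Without knockout replicates 1 and 2 in turn, it was 8 of 29 and 28 of 31. Without control replicates 1 and 2 in turn, it was 12 of 31 and 28 of 31, and with limma on log2(TPM + 1) 12 of 29. Apart from Hoxc11, the log2 fold changes ran between −0.49 (Hoxc8) and 1.15 (Hoxa3), and the 95% interval of each of these 28 genes included 0. Hoxa10 had a log2 fold change of 0.20 with an interval of −0.44 to 0.85, and Hoxa11 one of 0.0997 with an interval of −0.50 to 0.70. Among the 29 genes the interval reached 0.50 to either side of the estimate where it was narrowest (Hoxd8) and 2.37 where it was widest (Hoxc9). Differences within these intervals were not detectable with 2 libraries per group.

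**Figure D4:**
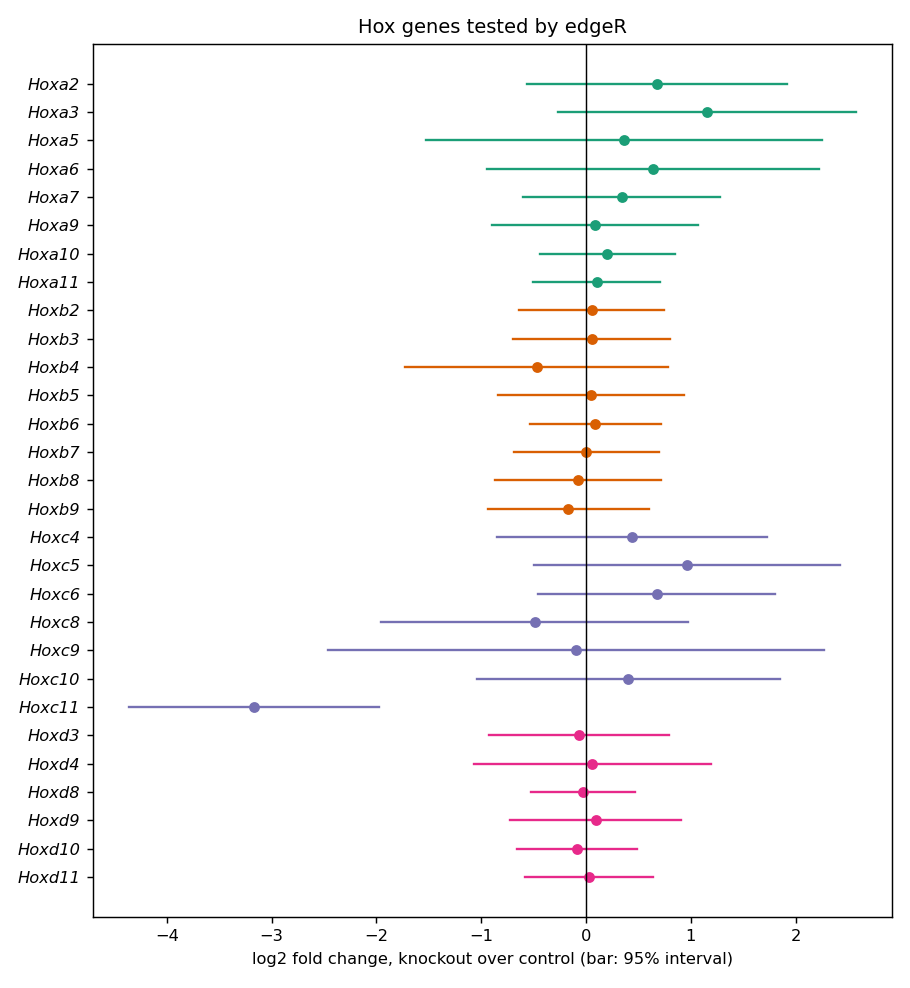
Log2 fold change of knockout over control for the 29 tested Hox genes, with 95% intervals from edgeR, coloured by cluster. The interval of Hoxc11, at −4.36 to −1.98, is the 1 that leaves out 0.

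Apart from Hoxc11 and Hoxc5, each tested Hox gene differed more between the libraries of at least one group than between the groups, on the log2 scale in CPM. In TPM, knockout 1 exceeded knockout 2 in 29 of 29 genes and control 2 exceeded control 1 in 27 of 29. Both held together in 27 of 29 genes, in TPM and also in CPM with TMM normalisation, while both held for 35% of all tested genes in CPM and 40.5% of the table's genes in TPM. The exceptions were Hoxc11 and Hoxd11. In CPM the median member was higher by 0.73 on the log2 scale in knockout 1 than in knockout 2, and by 0.50 in control 2 than in control 1, beside 0.021 and 0.00045 over all tested genes. No test was made, since libraries of one group have no contrast between them.

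The size of these differences varied between genes, and no position effect was tested. Hoxc9 and Hoxa5 differed most, by 2.13 and 2.01 on the log2 scale between knockouts 1 and 2 and by 1.86 and 1.90 between controls 2 and 1. Hoxa5 had 25.6 and 5.38 TPM in the knockouts and 4.96 and 19.0 TPM in the controls. Over the 5 genes of positions 1 to 3 the median was 0.76 between the knockouts and 0.48 between the controls, over the 14 genes of positions 4 to 8 it was 0.83 and 0.67, and over the 10 genes of positions 9 to 11 it was 0.43 and 0.29. The order was not even along the clusters: the 2 genes of position 7 had a median of 0.34 between the knockouts, below the 0.43 of the 3 genes of position 10, and the 4 genes of position 9 one of 1.06. The 3 genes of position 11 had the lowest medians, 0.020 between the knockouts and −0.24 between the controls.

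Smooth muscle markers ran the other way across the same libraries. The 10 markers, all in the table and none of them at 0, summed to 7269 and 10546 TPM in the knockouts and 8614 and 2874 TPM in the controls, and 0 of 10 shared the direction of the Hox genes in both groups. Uterine stroma markers summed to 3205 and 3178 TPM in the knockouts and 5019.8 and 2762 TPM in the controls. The near-equal knockout sums hid opposite differences. Pdgfra, Hand2, Nr2f2, Pdgfrb, Thy1 (215 and 102 TPM) and Col1a1 were higher in knockout 1. Dcn, Col3a1, Lum (200 and 301 TPM) and Vim were higher in knockout 2. Of the 10 stroma markers, 2 shared the direction of the Hox genes in both groups. Pan-epithelium markers summed to 3453 and 3119 TPM in the knockouts and 2707 and 3889 TPM in the controls, with 4 of 10 sharing it, and endothelium markers summed to 733 and 454 TPM in the knockouts and 569 and 613 TPM in the controls, with 2 of 8 sharing it. None of the markers of stroma, epithelium or endothelium was at 0. Adipocyte markers summed to 0.491 and 80.3 TPM in the knockouts and 1.27 and 13.5 TPM in the controls, so knockout 2 held the most. The part of any of these cell types in the Hox differences was not tested. In lists described below, 6 of 8 tested embryonic regulators of Hox genes and 7 of 11 Müllerian duct genes shared the direction, against 35% of all tested genes. It was shared by 4 of 11 cofactor, 6 of 18 Polycomb and 4 of 13 Trithorax and other activator genes. Of the uterine genes linked to Hoxa10 or Hoxa11, 3 of 12 shared it.

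**Figure D5:**
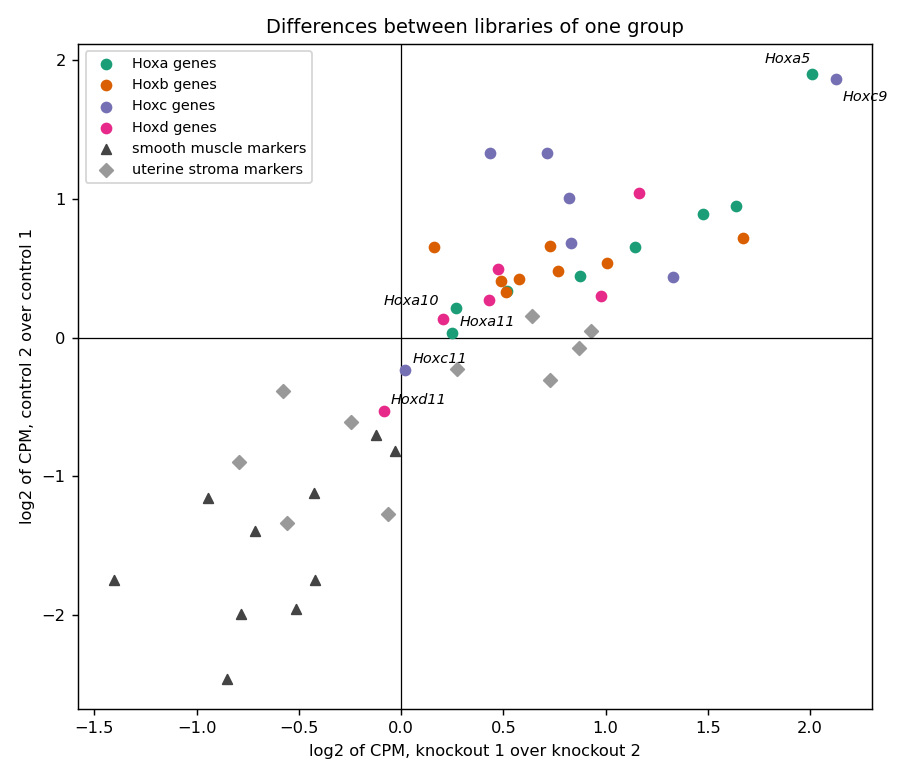
Difference between libraries of one group on the log2 scale, as knockout 1 over knockout 2 (horizontal axis) and control 2 over control 1 (vertical axis), in CPM with TMM normalisation and 0.1 CPM added. Circles are the 29 Hox genes by cluster, triangles 10 smooth muscle markers and diamonds 10 uterine stroma markers. At the upper right, above 0 on both axes, lie 27 Hox genes.

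Antisense and other genes of the clusters gave no call. Of 33 listed genes in and beside the clusters, 22 were tested. Among these 22 genes 0 passed in either direction, against 0.00477% of all tested genes, and 1, Hotair, had an unadjusted p under 0.05, against 3.01%. Their median log2 fold change was −0.056, and 13 of 22 were higher in knockout 1 than in knockout 2 and in control 2 than in control 1, against 35% of all tested genes. Hoxa11os, transcribed opposite Hoxa11, had 221 and 146 TPM in the knockouts and 147 and 152 TPM in the controls, with knockout 2 below both controls, while in CPM both knockouts, at 207 and 157, lay above both controls, at 142 and 147. Hoxb3os had 63.4 and 33.4 TPM in the knockouts and 41.7 and 56.3 TPM in the controls, and Hoxb5os had 98.8 and 65.8 TPM in the knockouts and 67.5 and 79.3 TPM in the controls. Without a stated strand setting, the reads of an antisense gene and of its partner cannot be told apart where they overlap. Hottip, the noncoding gene beside Hoxa13, had 0 and 1 counts in the knockouts and 0 and 0 in the controls, and Evx1, beyond Hoxa13, was at 0 in every library.

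The Hox clusters also hold microRNA genes. Mature sequences are shown for 2 of their families, miR-10 and miR-196, because each recurs between clusters. Capitals mark the seed, bases 2 to 8 from the 5′ end, and the sequences are from RefSeq on GRCm38.p6.
mmu-miR-10a-5p: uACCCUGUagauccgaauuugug
mmu-miR-10b-5p: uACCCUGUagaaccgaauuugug
mmu-miR-196a-5p: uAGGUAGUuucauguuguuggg
mmu-miR-196b-5p: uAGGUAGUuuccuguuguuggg

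The genes of miR-10a and miR-10b, in Hoxb and Hoxd, share the seed ACCCUGU, and those of miR-196a, in Hoxb and Hoxc, and of miR-196b, in Hoxa, share AGGUAGU. Counts at these genes in a library of long RNA do not measure the mature microRNA. Mir196a-1, in Hoxb, had 54 and 15 counts in the knockouts and 32 and 56 in the controls, and Mir10a had 30 and 12 in the knockouts and 25 and 30 in the controls, the order seen for the Hoxb genes around them. Mir10b, in Hoxd, had 1 and 7 counts in the knockouts, the opposite order, and 0 and 1 in the controls. Mir196a-2 in Hoxc and Mir196b in Hoxa were at 0 in every library, and Mir196b overlaps an exon of Hoxa9, where the counting of shared reads is not stated.

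Hox proteins bind DNA with partners of the PBX and MEIS families. Of 11 listed cofactor and related homeodomain genes, 11 were tested, with a median log2 fold change near 0. Among them 0 passed in either direction, against 0.00477% of all tested genes, and 0 had an unadjusted p under 0.05, against 3.01%. The PBX gene Pbx2 had 94.1 and 60.7 TPM in the knockouts and 66.9 and 82.3 TPM in the controls, and the groups overlapped. The related repressor gene Tgif2 had 47.1 and 48.5 TPM in the knockouts and 43.0 and 41.6 TPM in the controls, without overlap. Its unadjusted p in edgeR was 0.291.

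Genes that silence or keep open the Hox clusters gave no call. Of 18 Polycomb genes tested, 0 passed in either direction, against 0.00477% of all tested genes, and 0 had an unadjusted p under 0.05, against 3.01%. The median log2 fold change of these Polycomb genes was 0.069. The most abundant in TPM were the chromodomain gene Cbx6, Bmi1 and the E3 ligase gene Ring1, with 123, 64.4 and 56.1 TPM over the 4 libraries. Of 13 Trithorax and other activator genes tested, 0 passed and 0 had an unadjusted p under 0.05, against the same shares of all tested genes. Their median was 0.061, and Dpy30, Wdr5 and Kdm6b led at 89.9, 57.4 and 55.1 TPM over the 4 libraries.

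Regulators that set Hox patterns in the embryo were tested in 8 of 12 listed cases. Among them 0 passed, against 0.00477% of all tested genes, and 0 had an unadjusted p under 0.05, against 3.01%. The caudal-type genes Cdx2 and Cdx4, which activate Hox genes in the tail of the embryo, were at 0 in every library. Cyp26a1, which breaks down retinoic acid, had 4.05 and 34.8 CPM in the knockouts and 160.3 and 4.36 CPM in the controls, and the groups overlapped. The retinoic acid receptor gene Rarg had 82.4 and 69.2 CPM in the knockouts and 55.3 and 72.0 CPM in the controls, and the transcription factor gene Zbtb16 had 126 and 60.9 CPM in the knockouts and 69.2 and 85.0 CPM in the controls. In both genes the groups overlapped.

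Of 14 listed genes that pattern the Müllerian duct, the embryonic source of the uterus, 11 were tested. Among them 0 passed, against 0.00477% of all tested genes, and 1, the ligand gene Wnt4, had an unadjusted p under 0.05, against 3.01%. Wnt4 had 4.90 and 2.46 CPM in the knockouts and 8.20 and 7.81 CPM in the controls, without overlap. Its log2 fold change was −1.12 (SE 0.43), and edgeR gave it an adjusted p of 0.99998. The median of the list was −0.0028. The homeobox gene Msx1 had 414 and 319.8 CPM in the knockouts and 204 and 412 CPM in the controls, Wnt5a had 288 and 175 CPM in the knockouts and 263 and 320.3 CPM in the controls, and Emx2, a gene repressed by Hoxa10 in human endometrial cells, had 88.8 and 74.4 CPM in the knockouts and 62.7 and 80.2 CPM in the controls. In each of these 3 genes the groups overlapped. Of 14 uterine genes linked to Hoxa10 or Hoxa11 in earlier work, 12 were tested. Among them 0 passed and 1, the cytokine gene Lif, had an unadjusted p under 0.05, against the same 0.00477% and 3.01% of all tested genes. Lif had 4.90 and 5.35 CPM in the knockouts and 55.7 and 9.46 CPM in the controls, without overlap. The list's median was 0.028, and the chaperone gene Fkbp4 led it in TPM. In CPM it had 389 and 399 in the knockouts and 380.4 and 370.2 in the controls, without overlap, and a log2 fold change of 0.071. In TPM its groups overlapped, at 457 and 407 TPM in the knockouts and 433 and 422 TPM in the controls.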

How the data were processed

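Whole uterus gave RNA through a Qiagen RNeasy kit and libraries through a NEBNext Ultra II kit, per the labels, and paired reads of 150 bases, per the series' design text. The submitters' processing notes name Trimmomatic, STAR and featureCounts and the build GRCm39. Their versions, the annotation release, the strand setting and the treatment of shared reads are not given in the sources used. The authors deposited raw counts for 57186 genes, and TPM for the 19991 of them with a total count of at least 51. Symbols of the 29 Hox genes in that table are the authors', and those of the 10 below it came from GENCODE M21, which was also used for chromosomes and overlaps. TPM of genes outside the Hox family was recomputed from deposited counts and lengths over all genes.

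Knockout was compared with control by edgeR 4.0.16 (quasi-likelihood test, TMM, filterByExpr with minimum count 10 and minimum total 15) run in R 4.3.3 on the counts as deposited, with Benjamini-Hochberg adjustment over 20950 genes and a threshold of 0.05. All 29 Hox genes in the TPM table were tested and the 10 below it were not. Alternatives were other scalings, DESeq2 1.42.0, limma 3.58.1, other filters, a replicate block and each library left out. Counting intervals cover counting error only, since PCR copies are not independent molecules, and p-values reflect only variation among these samples, possibly technical, since separate animals are not stated. Values in every library are given for Hoxc11, genes of positions 9 to 13 above the cut and the 2 most abundant genes of each cluster. For other lists, genes past the threshold or up to 3 of the most abundant are named. Those of the Polycomb and activator lists are given as means over the 4 libraries. Hoxa5, Hoxc5, Cyp26a1, Wnt4, Lif, Krt5, Foxa2, Thy1, Lum and the noncoding genes named singly were picked with their values in view. Values of some genes are not reported here. The Hox genes and lists were chosen with earlier results of these data known.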

Additional observations from a re-analysis of the deposited data

How the results depend on the processing

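The count of genes past the threshold over all features, 1 in edgeR, was 90 with DESeq2, 0 with limma-voom, 3 with limma on log2(TPM + 1), 54 with no low-count filter and 16 to 49 with 1 library left out in turn. Of the Hox genes, 0 passed in edgeR; DESeq2 called 1 and edgeR without the filter 1, Hoxc11 in both, and the other 11 settings 0. The cause was not tested. The replicate numbers pair no samples in the labels. Deviations of knockout 1 and control 1 from their group means correlated at −0.50 across 17269 genes, which are not independent replicates. The replicate block gave 32 calls, none a Hox gene, and the crossed replicate block, added after seeing the data, 37, none a Hox gene.

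With 1 library left out in turn, the median log2 fold change of the Hox genes ran between −0.33 and 0.47, and with limma on log2(TPM + 1) it was −0.019. Single genes were followed across the settings only for Hoxc11, Hotair and the 2 most abundant Hox genes of each cluster. Among these, log2 fold changes that changed sign with 1 library left out had ranges of −0.029 to 0.22 for Hoxa11 and −0.17 to 0.31 for Hoxb6. The ranges were −0.48 to 0.29 for Hoxb8 and −0.40 to 0.97 for Hoxc4, and −0.48 to 0.50 for Hoxd9 and −0.31 to 0.12 for Hoxd10. Hoxd9 also turned to −0.040 with limma on log2(TPM + 1). Those of Hoxc11, Hotair, Hoxa10 and Hoxc6 kept their sign in each setting where the gene was tested. The difference in cluster share, knockout minus control, ran between 0.47 and 5.40 percentage points for Hoxa with 1 library left out in turn, and for Hoxb it turned to 0.36 without control replicate 2, against −1.71 with all libraries. That of Hoxc ran between −0.16 and 0.16, and that of Hoxd between −2.24 and −0.20. Counts of 22 and 1 in the knockouts limit the precision for Hoxc11 and Hotair.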
